A study of Arabidopsis thaliana with 4 samples.

Results

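Flavonoid synthesis in Arabidopsis thaliana, the thale cress, was followed through 36 genes chosen by locus code for their known place in the pathway. They comprise the enzymes from chalcone synthase to anthocyanidin reductase, the transporters and glycosyltransferases behind them, and the MYB, bHLH and WD40 regulators. Of the 36, 35 had a row of their own in the authors' expression table, which holds 33444 gene codes, and the proton pump AHA10 (AT1G17260) was joined with a neighbour. The laboratory accession Col-0 was sampled in 4 organs with 1 RNA sequencing library each. Roots and leaves were taken from plants aged 2 weeks on MS plates, where the growth protocol calls the leaf material the aerial part. Flowers and siliques, the pods with their developing seeds, came from soil-grown plants aged 5 weeks, and all plants were kept in long days at 22 °C. Roots with leaves and flowers with siliques are therefore the 2 pairs matched for age and medium. In the other pairs organ, age and medium cannot be told apart. With 1 library an organ, no difference has a replicate check and no p-value is given.

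Flavonoids are built from a coumaroyl precursor by a short series of early enzymes that ends at the dihydroflavonols. From there flavonol synthase leads to flavonols, the ultraviolet-absorbing glycosides found in most organs and in pollen, and dihydroflavonol reductase leads to leucoanthocyanidins. The latter become either anthocyanins, the red and purple pigments of stressed shoots, or, in the inner layer of the young seed coat, the proanthocyanidins or condensed tannins that brown the mature seed. Seeds of mutants in many genes of the route to tannins are pale, which gave the transparent testa (TT) genes their name. Flavonol genes are known to be controlled by the MYB11, MYB12 and MYB111 factors, and the later genes by complexes of a MYB, a bHLH protein and the WD40 protein TTG1.

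Levels are the authors' FPKM, a fragment count divided by transcript length and sequencing depth, so that different genes can be set side by side. An interval around each value comes from the authors' table too, and its level is unknown here. At an FPKM of 1, about 148 to 155 fragments fell on each kilobase, depending on the library. Differences are given as log2 ratios of FPKM + 1, which understates those of low genes, and a gene is called higher where this ratio is at least 1 (2-fold). Such calls were made for the 23477 loci that reached an FPKM of 1 in some organ and had a usable status in every library, among them 32 of the 35 genes. The other 3, the anthocyanin genes PAP2, 5MAT and UF3GT, stayed below an FPKM of 1 everywhere. Markers of roots and flowers were highest in their own library, and seed markers were mixed. Root markers summed to 256 FPKM in roots and at most 1.68 elsewhere, and tapetum markers to 251 in flowers and at most 0.161 elsewhere. Of the flower markers, AP3 and AG stood at 79 and 30 FPKM in siliques as well, while PI and TPS21 were at 2.89 and 0.68 there. Among the seed markers in siliques, the embryo regulator LEC1 stood at 19.4 FPKM and the storage protein genes CRA1 and SESA1 at 0.649 and 0.605. CRA1 and the oil body gene OLEO1 were higher in roots, at 6.15 and 7.27 FPKM, than in siliques, where OLEO1 read 1.74. Leaf markers summed to 8648 FPKM in leaves, 6192 in siliques and 3572 in flowers. LHCB2.1 and TGG1 were highest in leaves, while RBCS2B and CA1 were higher in siliques (2089 and 1481 FPKM) than in leaves (1873 and 1097). In bulk organs, fewer cells of a type and less RNA per cell cannot be told apart.

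Transcripts of the pathway were highest in the reproductive organs for most genes. Of the 35 genes, 21 had their highest level in siliques, 11 in flowers, 2 in leaves and 1 in roots. The 11 include PAP2, 5MAT and UF3GT, which stayed below 1 FPKM and are not among the compared loci. Among all compared loci the highest level was in siliques for 15.4%, in flowers for 31.6%, in leaves for 13.7% and in roots for 39.3%. At least 2-fold above each other organ, 17 of the 32 compared genes stood apart in siliques, against 5.62% of all compared loci. The same rule took 4 genes in flowers (background 8.04%), 1 in leaves (2.73%) and 1 in roots (11.8%). Of the genes so called, TT1 reached 1 FPKM in siliques only, UGT78D3 in flowers only and GL3 in roots only. Between organs of different age, flowers were at least 2-fold above roots for 22 genes (background 23.8%) and above leaves for 23 (21.6%), and siliques above roots for 24 (19.8%) and above leaves for 23 (16.9%). In the reverse direction 1 gene passed each time, GL3 in roots (16.5% over flowers, 19.5% over siliques) and MYBL2 in leaves (7.79% and 8.4%). The plot of levels by organ shows early enzymes high in both reproductive organs, late and tannin genes high in siliques, and UGT75C1, 5MAT and UF3GT of the anthocyanin branch low everywhere.

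**Figure D1:**
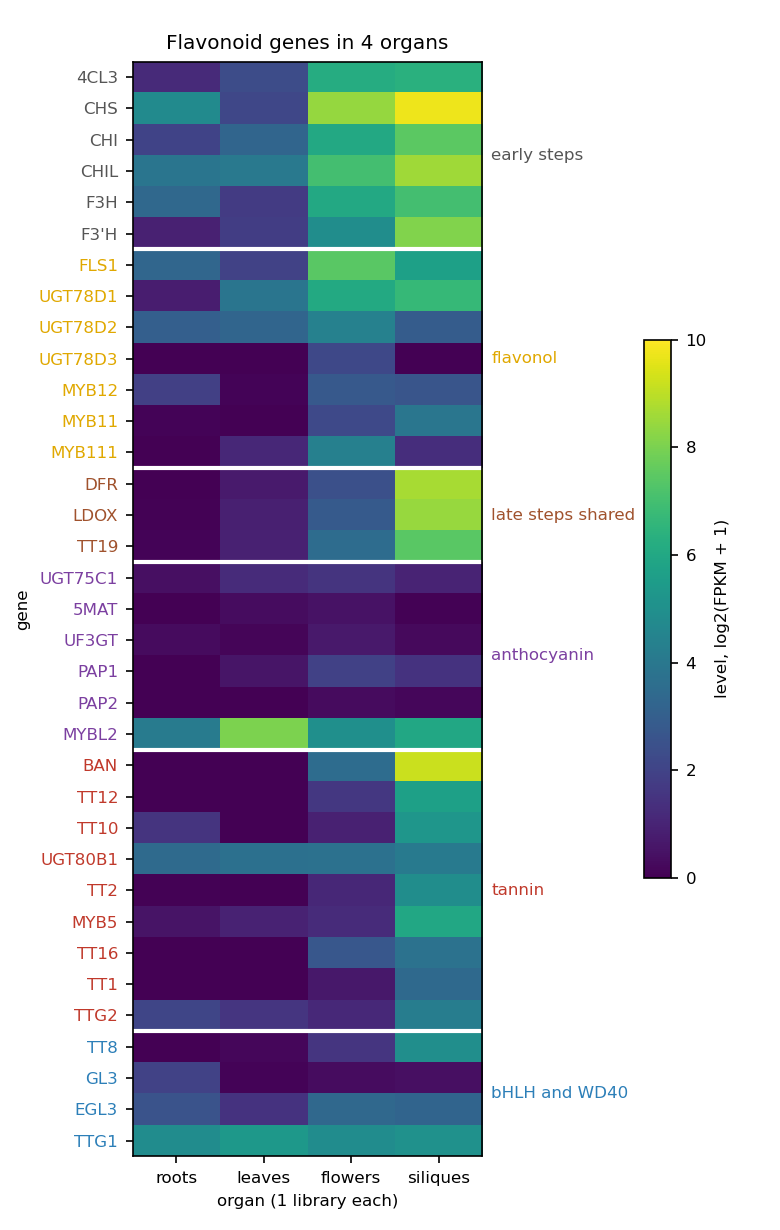
Level of 35 flavonoid genes in the 4 libraries, as log2(FPKM + 1), with the genes in rows grouped by branch and the organs in columns. The late shared and the tannin genes are brightest in siliques, where BAN reached 582 FPKM, and MYBL2 is brightest in leaves at 262 FPKM.

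The bases upstream of 4 genes that mark the branches are shown because these genes take part in the main contrasts below: CHS at the entry, FLS1 at the flavonol branch, DFR at the first step away from flavonols and BAN at the tannin step. Each run is the 250 bases before the annotated gene start on the gene's own strand, from RefSeq's TAIR10.1 genome, 5′ to 3′. Capitals mark matches to CANNTG, the E-box bound by bHLH proteins, which includes the G-box CACGTG, and to ACCNACC, an AC element of the kind bound by plant MYB factors. Both strands were searched, and overlapping matches were kept.
CHS: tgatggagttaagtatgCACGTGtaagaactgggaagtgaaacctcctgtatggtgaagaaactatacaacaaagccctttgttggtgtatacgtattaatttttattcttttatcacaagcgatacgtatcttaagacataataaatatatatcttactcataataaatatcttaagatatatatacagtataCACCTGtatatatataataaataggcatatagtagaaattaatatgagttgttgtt
FLS1: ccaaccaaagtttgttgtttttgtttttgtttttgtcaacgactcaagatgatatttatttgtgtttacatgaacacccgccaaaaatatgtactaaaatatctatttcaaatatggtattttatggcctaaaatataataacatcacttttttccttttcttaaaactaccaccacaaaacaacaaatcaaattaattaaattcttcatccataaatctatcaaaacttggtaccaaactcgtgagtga
DFR: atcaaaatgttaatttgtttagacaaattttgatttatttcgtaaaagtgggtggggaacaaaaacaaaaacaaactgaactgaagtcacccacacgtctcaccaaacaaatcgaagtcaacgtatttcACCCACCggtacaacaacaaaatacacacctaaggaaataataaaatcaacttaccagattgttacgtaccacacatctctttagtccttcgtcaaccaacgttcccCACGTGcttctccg
BAN: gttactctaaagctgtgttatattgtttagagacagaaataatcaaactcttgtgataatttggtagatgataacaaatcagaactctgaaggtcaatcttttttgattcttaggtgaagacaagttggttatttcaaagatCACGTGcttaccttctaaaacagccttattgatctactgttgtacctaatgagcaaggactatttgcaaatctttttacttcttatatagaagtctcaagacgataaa
The windows lie at chr5:4488226-4488475, plus strand (CHS), chr5:2803583-2803832, plus strand (FLS1), chr5:17166033-17166282, minus strand (DFR) and chr1:22792804-22793053, minus strand (BAN).

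Positions are counted from the annotated start, with -1 for the base before it. In CHS a G-box match begins at -233 and another E-box match at -56. DFR holds a G-box match that begins at -14 and an AC element at -121, and BAN a G-box match at -108. FLS1 holds neither motif in this window. Over the promoters of all 36 listed genes, a G-box match was found in 9 (25%), against 6.49% of 27438 protein-coding promoters of the same length. An AC element was found in 8 (22.2%), against 6.1% of all promoters, and none of these (0 of 10) was in the tannin branch. The wider E-box was found in 24 (66.7%) of the genes and 55.3% of all promoters. The MYB core letters CNGTTA and CNGTTG each occurred in 7 genes (19.4%), against 26.6% and 20.3% of all promoters. A match is a description of the letters and not a measured binding site.

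**Figure D2:**
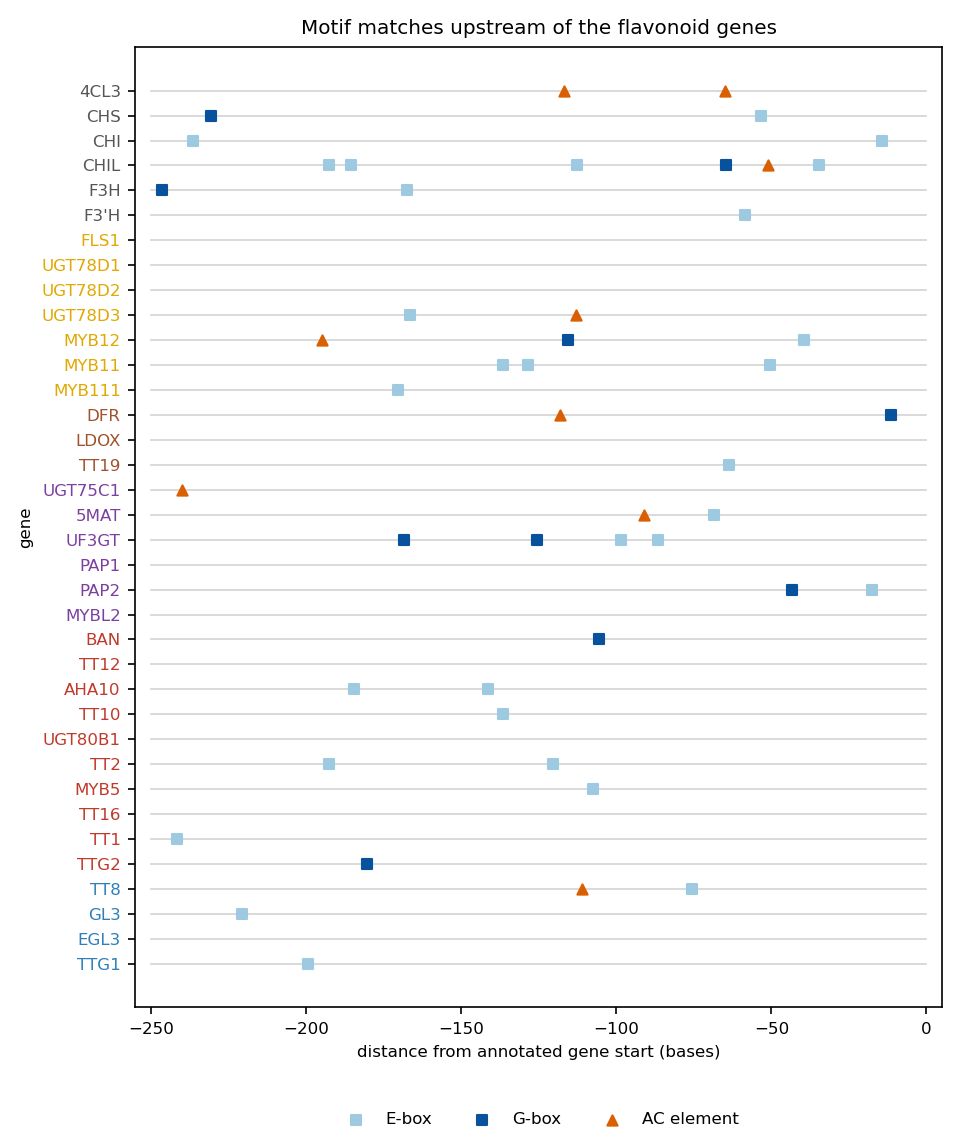
Position of E-box, G-box and AC element matches in the 250 bases upstream of the 36 genes, with the distance from the annotated gene start in bases on the x axis and 1 gene per row, coloured by branch. G-box matches lie in 9 genes and AC elements in 8, at scattered distances from the start.

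The early enzymes were higher in flowers and siliques than in seedling organs, at least 2-fold for 6 of 6 genes in each such pair. Among all compared loci, flowers passed 2-fold over roots for 23.8% and over leaves for 21.6%. For siliques the shares were 19.8% over roots and 16.9% over leaves. These pairs differ in age and medium as well as in organ. Chalcone synthase, CHS (AT5G13930), the enzyme at the entry of the pathway, stood at 26.4 (roots), 3.33 (leaves), 339.6 (flowers) and 847 FPKM (siliques). In siliques it ranked 55 of 34071 usable loci. Chalcone isomerase, CHI (AT3G55120), was at 3.06, 8.54, 64.0 and 176 FPKM in the same order of organs. Both were highest in siliques, and leaves and roots exchanged places between them: CHS was higher in roots and CHI in leaves.

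CHIL (AT5G05270), a non-catalytic relative of chalcone isomerase that raises the output of chalcone synthase, stood at 13.8 (roots), 15.6 (leaves), 128 (flowers) and 385 FPKM (siliques). It was 2-fold above CHI in flowers and 2.19-fold above it in siliques. Flavanone hydroxylase, F3H (AT3G51240), which makes dihydroflavonols, was at 9.53, 2.33, 63.8 and 127 FPKM. An annotated long noncoding gene, AT3G51238, covers almost the same interval and followed it at 5.93, 1.5, 40.7 and 75.1 FPKM. No strand is given, so reads of these genes cannot be told apart. CHS also shares bases with AT5G13940, which did not exceed 1.52 FPKM.

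Flavonoid hydroxylase, F3'H (AT5G07990), adds the hydroxyl that separates quercetin from kaempferol and that the tannins of the seed coat carry. It stood at 0.898 (roots), 2.55 (leaves), 28.8 (flowers) and 276 FPKM (siliques). Relative to F3H in the same library it was at 0.452 in flowers and 2.17 in siliques. The ligase 4CL3 (AT1G65060), which activates coumarate for the pathway, was at 1.30, 4.06, 72.9 and 79.7 FPKM. Siliques stood 1.09-fold above flowers in the ligase and 9.58-fold above them in F3'H. With separate intervals as a further condition, flowers lay above roots for 4CL3, CHIL and F3H of the early genes, with UGT78D1 and TT16 (5 of 32, background 1.01%), and siliques above roots for the same 3 early genes with MYB11, LDOX, TT10 and MYB5 (7 of 32, 0.814%). Against leaves the numbers were 4 (0.562%) for flowers and 6 (0.43%) for siliques, and in the reverse directions 0, against 0.664% and 0.775% for roots and 0.175% and 0.145% for leaves.

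At the branch point the order of flowers and siliques turned over. Flavonol synthase, FLS1 (AT5G08640), stood at 8.86 (roots), 2.95 (leaves), 171 (flowers) and 50.4 FPKM (siliques). Dihydroflavonol reductase, DFR (AT5G42800), which takes the same substrates towards leucoanthocyanidins, was at 0.00449, 0.640, 4.43 and 417 FPKM. The value in roots has an upper end 3 times as high, as a single fragment gives. Within a library, FLS1 exceeded DFR 4.61-fold in leaves and 38.6-fold in flowers, while DFR exceeded FLS1 8.28-fold in siliques. These ratios do not depend on the scaling between libraries.

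**Figure D3:**
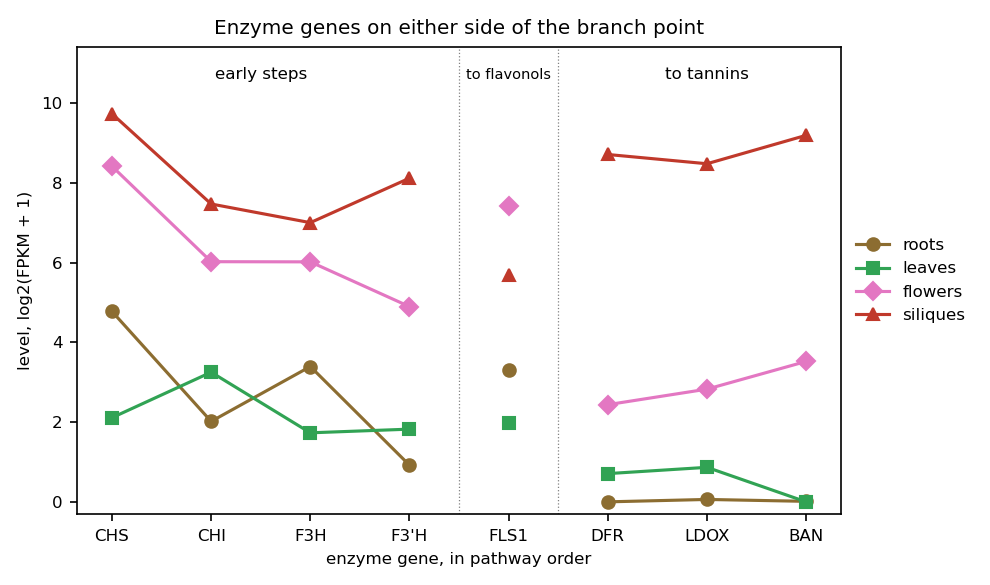
Level as log2(FPKM + 1) of 8 enzyme genes in pathway order in the 4 libraries, with lines joining the early steps and the steps to tannins. Flowers lie above siliques at FLS1, at 171 against 50.4 FPKM, and far below them at DFR, LDOX and BAN.

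The glycosyltransferases that decorate flavonols differed in organ preference. UGT78D1 (AT1G30530), a flavonol rhamnosyltransferase, stood at 0.745 (roots), 13.8 (leaves), 66.4 (flowers) and 104 FPKM (siliques). UGT78D2 (AT5G17050), which adds glucose to flavonols and also to anthocyanidins, was at 7.26, 8.47, 20.0 and 6.56 FPKM. Roots therefore held more UGT78D2 than UGT78D1 and the other organs more UGT78D1, by 15.8-fold in siliques.

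UGT78D3 (AT5G17030), an arabinosyltransferase, was at 3.46 FPKM in flowers, 0.0141 in siliques and 0.00681 in leaves, and was listed at 0 in roots. UGT78D3 and UGT78D2 lie 2894 bases apart on chromosome 5 with UGT78D4 between them. The coding sequences of UGT78D2 and UGT78D3 are identical at 82.9% of aligned bases, with a longest shared run of 44 bases, so some of their reads may have been split by the authors' counting.

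Of the flavonol regulators, MYB111 was highest in flowers and MYB11 in siliques, while MYB12 was nearly level between these organs (1.14-fold). MYB111 (AT5G49330) stood at 0.0228 (roots), 1.15 (leaves), 19.5 (flowers) and 1.48 FPKM (siliques). MYB12 (AT2G47460) was at 2.74, 0.0653, 6 and 5.25 FPKM, and MYB11 (AT3G62610) at 0.0757, 0, 3.56 and 14.4. In roots MYB12 was the highest of these regulators, in leaves and flowers MYB111 and in siliques MYB11. The authors' intervals separate MYB11 in siliques (2.85 to 26) from MYB11 in roots (0 to 0.191). MYB111 in flowers (0 to 39.8) overlaps that in every other organ. Coding sequences of MYB11 and MYB12 are identical at 74% of aligned bases, and MYB111 shares 64.1% and 64.8% with them.

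The late steps shared by anthocyanins and tannins were at least 2-fold higher in siliques than in each other organ, for 3 of 3 genes (background 5.62%). LDOX (AT4G22880), the dioxygenase that makes anthocyanidins, stood at 0.0473 (roots), 0.829 (leaves), 6.11 (flowers) and 355 FPKM (siliques). Its interval in siliques (104 to 607) lies above that in flowers (0 to 15). TT19 (AT5G17220), a glutathione transferase needed for anthocyanin and tannin precursors to reach the vacuole, was at 0.0584, 0.865, 10.5 and 173 FPKM. Siliques exceeded flowers 94.2-fold in DFR, 58.1-fold in LDOX and 16.5-fold in TT19. Among all 23477 compared loci, DFR ranked 35 and LDOX 61 by the log2 ratio of siliques over flowers.

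Enzymes and transporters of the tannin branch followed the same order. Anthocyanidin reductase, BAN (AT1G61720), which makes the epicatechin unit of tannins, stood at 0.0134 (roots), 0.00464 (leaves), 10.5 (flowers) and 582 FPKM (siliques). It ranked 59 by the log2 ratio of siliques over flowers and 99 by level in siliques. TT12 (AT3G59030), which carries glycosylated epicatechin into the vacuole, was at 0.0108, 0.0222, 2.04 and 50.1 FPKM. Its end overlaps AT3G59040, which was not highest in siliques (5.95, 28.1, 21.9 and 16 FPKM). The joined locus of AHA10, the vacuolar proton pump that drives this transport, and AT1G17255 stood at 1.78, 1.29, 4.16 and 37.3 FPKM. Its parts cannot be told apart, so it enters no count.

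TT10 (AT5G48100), the laccase that oxidises tannins as the seed coat browns, was at 1.85 (roots), 0.0194 (leaves), 0.909 (flowers) and 36.7 FPKM (siliques). Its interval in siliques (16.5 to 56.9) lies above those of the other organs, whose highest upper end is 5.18. UGT80B1 (AT1G43620), a sterol glucosyltransferase also known as TT15, varied little across organs in the row used, at 9.91, 11.9, 12.4 and 16.0 FPKM. A second row of UGT80B1 over the same interval read 5.58, 15.2, 13.9 and 14 FPKM. In that row leaves were more than 2-fold above roots, at a log2 ratio of roots over leaves of -1.30. Flowers and siliques were level in it. Of the tannin genes, UGT80B1 was thus the exception to the silique pattern.

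Regulators of the tannin branch were also highest in siliques. TT2 (AT5G35550), the MYB factor that switches on BAN, stood at 0.0313 (roots), 0.0110 (leaves), 1.18 (flowers) and 28.7 FPKM (siliques). MYB5 (AT3G13540), a related MYB of the seed coat, was at 0.449, 0.961, 1.32 and 62 FPKM. Its interval in siliques (28.6 to 95.5) lies above that in flowers (0 to 3.43). MYB5 sits within the annotated span of MAPKKK7 (AT3G13530), whose row read 12.2, 12.2, 11.9 and 55.2 FPKM, and without strand the reads of the overlap cannot be assigned.

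TT16 (AT5G23260), a MADS factor of the inner seed coat, was listed at 0 in roots and stood at 0.0270 FPKM in leaves, 5.63 in flowers and 12.8 in siliques. TT1 (AT1G34790), a zinc finger protein of the same layer, was listed at 0 in roots and leaves and stood at 0.583 in flowers and 9.64 in siliques. The WRKY factor TTG2 (AT2G37260), which acts in the seed coat, trichomes and root epidermis, was at 3.28, 1.91, 1.21 and 17.7 FPKM. TT16 was the tannin regulator with the smallest gap between flowers and siliques, 2.27-fold.

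The seed coat and ovule genes outside the pathway differed in how far they followed these results. STK, an ovule and seed coat MADS factor, stood at 46.6 in flowers and 183 FPKM in siliques, and GL2, an epidermal factor, at 1.12 and 24.8. INO, which marks the outer ovule integument and was picked after its values were seen, was at 13 and 9.51, and was listed at 0 in roots and leaves. Of the 6 genes of that list, 2 were at least 2-fold higher in siliques than in flowers (background 8.42%), and the summed level of all 6 was 144 FPKM in flowers and 300.3 in siliques. The part that the amount of seed coat tissue plays in the tannin levels was not tested.

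UGT75C1, 5MAT and UF3GT, which decorate anthocyanins, did not exceed 1.86 FPKM in any organ. UGT75C1 (AT4G14090), an anthocyanin glucosyltransferase, stood at 0.338 (roots), 1.35 (leaves), 1.86 (flowers) and 0.997 FPKM (siliques). The malonyltransferase 5MAT (AT3G29590) did not exceed 0.421 FPKM and the xylosyltransferase UF3GT (AT5G54060) did not exceed 0.589, both in flowers. BAN exceeded UGT75C1 584-fold in siliques and 5.64-fold in flowers. In siliques the late genes and BAN were thus high and these 3 decoration genes were each below 1 FPKM. UGT75C1 overlaps AT4G14100, which stood at 10.8 to 18 FPKM, and reads of the overlap cannot be assigned.

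Their MYB activators were low as well. PAP1 (AT1G56650), which turns on anthocyanin genes in seedlings, stood at 0.0132 (roots), 0.476 (leaves), 2.81 (flowers) and 1.79 FPKM (siliques). PAP2 (AT1G66390), its close relative, reached 0.231 FPKM in flowers and 0.122 in siliques and was listed at 0 in roots and leaves. The 2 coding sequences are identical at 84.3% of aligned bases with a longest shared run of 42 bases, so these low values are uncertain. TT2 exceeded PAP1 16.0-fold in siliques, while PAP1 exceeded TT2 2.38-fold in flowers.

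MYBL2 (AT1G71030), a small MYB repressor of anthocyanin genes, was highest in leaves. It stood at 16.8 (roots), 262 (leaves), 30.7 (flowers) and 62.9 FPKM (siliques), and ranked 335 in leaves. Its authors' interval in leaves (0 to 553) overlaps those of the other organs.

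Among the shared partners, the bHLH protein TT8 (AT4G09820), which pairs with TT2 in the seed coat, stood at 0.0113 (roots), 0.143 (leaves), 1.88 (flowers) and 29.5 FPKM (siliques). EGL3 (AT1G63650) was at 4.87, 1.76, 9.35 and 8.42 FPKM, and GL3 (AT5G41315), best known for trichomes and root hair patterning, at 2.96, 0.0821, 0.266 and 0.339. TT8 exceeded EGL3 3.51-fold in siliques, and EGL3 exceeded TT8 4.98-fold in flowers. TTG1 (AT5G24520), the WD40 protein common to these complexes, varied least of the group at 27.8, 39.3, 28.5 and 32.4 FPKM. GL3 was thus the single gene of the 35 that was highest in roots.

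Flowers against siliques sets the flower beside the pod that follows it, at equal plant age and in the same soil. Siliques were at least 2-fold higher for 18 of the 32 compared genes, against 8.42% of all compared loci, and flowers for 4, against 13.5%. The 4 were FLS1, UGT78D2, UGT78D3 and MYB111, all of the flavonol branch. UGT78D3 passed the floor of 1 FPKM through flowers alone, at 3.46 FPKM, so its call adds little. A floor of 5 FPKM leaves it out, and the flavonol median given next was then 0.82. By branch, the median log2 ratio of flowers over siliques was 1.47 over the 7 flavonol genes, 0.45 over the 3 compared anthocyanin genes and -3.77 over the 9 tannin genes. Over all compared loci it was 0.19. The anthocyanin median is the value of PAP1, a low gene at 2.81 FPKM in flowers and 1.79 in siliques. UGT75C1 stood at 0.52 and the repressor MYBL2 at -1.01, so this median does not describe the branch as a whole. The 6 early genes had a median of -1.38, and F3H at -0.98 lay just under the 2-fold call. UGT78D1 and MYB11 went against the 4 flavonol genes called higher in flowers, with ratios of -0.63 and -1.76, and MYB12 was nearly level at 0.16.

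**Figure D4:**
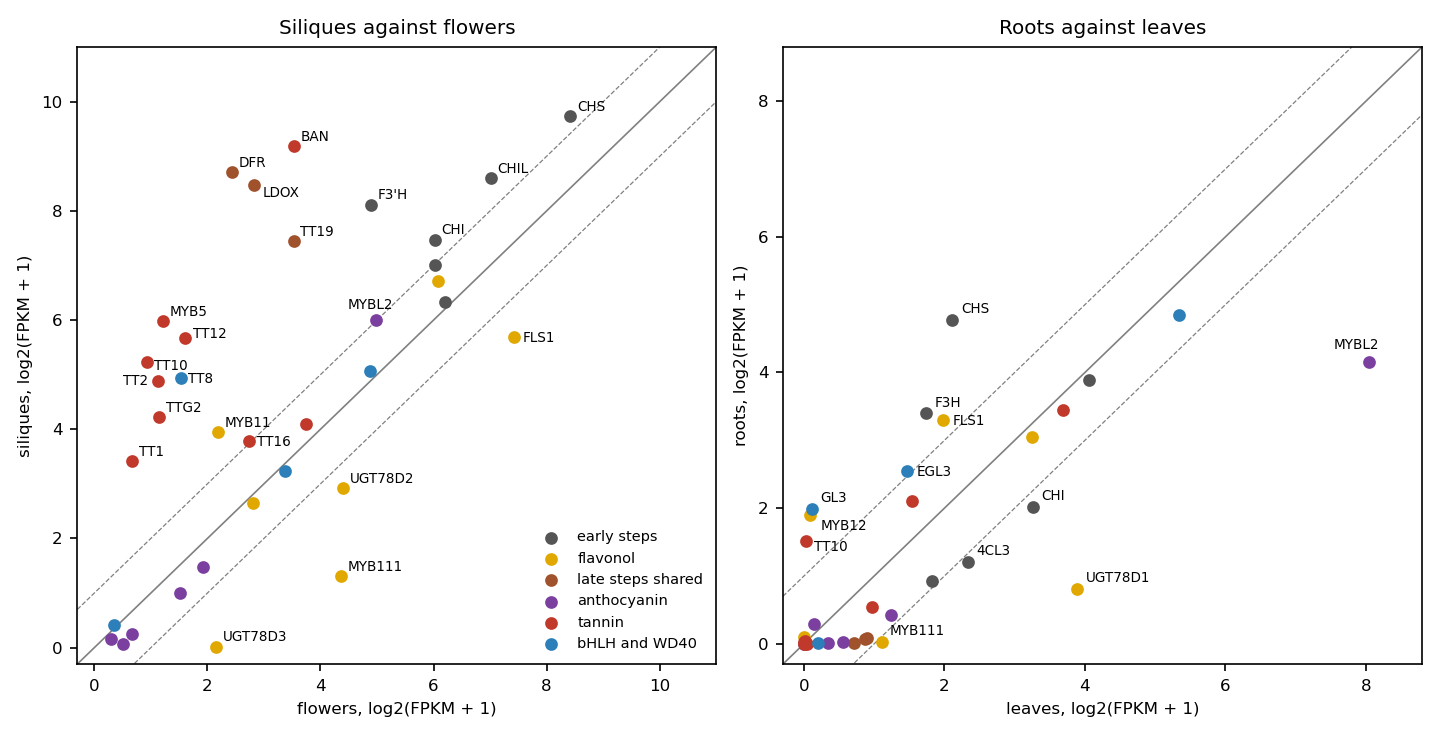
Level as log2(FPKM + 1) of the 35 genes in siliques against flowers (left) and in roots against leaves (right), coloured by branch, with the line of equal levels and dashed lines at 2-fold. On the left 18 genes lie above the upper dashed line and 4 below the lower, and on the right 7 and 5.

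Few of these gaps clear the authors' own intervals. With separate intervals as a further condition, siliques were higher for 3 genes, LDOX, TT10 and MYB5, against 0.166% of all compared loci, and flowers for 0, against 0.226%. The intervals are wide: lower ends lay above 0 for 10 of the 35 genes in flowers and 11 in siliques. Among all compared loci this held for still smaller shares, 14.6% in flowers and 12.4% in siliques. For BAN the interval in siliques runs from 0 to 1455 FPKM and in flowers from 0 to 25.1. Tapetum markers were higher in flowers together with the 4 flavonol genes: all 4 tapetum genes with a row of their own were at least 2-fold higher there, summing to 251 FPKM against 0.133 in siliques, where ATA7 and MS1 were listed at 0. Of the 3 pollen markers 2 were higher in flowers, AHA6 (65.1 against 0.0277 FPKM) and STP9 (45.4 against 0.0963), while GEX1 read 9.52 in flowers against 10.7 in siliques. The part of these tissues in the flower levels was not tested.

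At 4-fold, siliques were higher for 12 of the 32 genes (background 3.63%) and flowers for 2, MYB111 and UGT78D3 (4.94%). UGT78D3 reached 1 FPKM in flowers only, and TT1, among the genes higher in siliques, in siliques only.

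**Figure D5:**
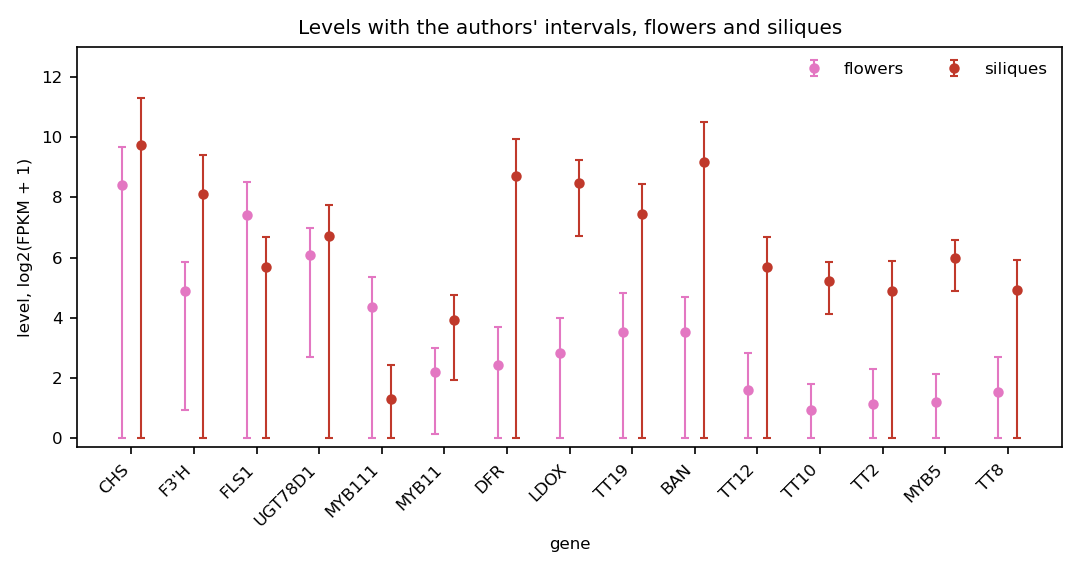
Level of 15 genes in flowers and siliques as log2(FPKM + 1), with bars that span the authors' intervals. Bars do not overlap for LDOX, TT10 and MYB5. In siliques they reach down to 0 for every gene shown except MYB11, LDOX, TT10 and MYB5.

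Roots against leaves compared organs of equally old seedlings from plates. Roots were at least 2-fold higher for 7 of the 32 genes, against 23.6% of all compared loci, and leaves for 5, against 13.4%. Shares of this size, 21.9% and 15.6%, are near the background. Higher in roots were CHS (7.93-fold), F3H (4.08-fold) and FLS1 (3.01-fold), together with MYB12, EGL3, GL3 and TT10. GL3 passed the floor of 1 FPKM through roots alone. Higher in leaves were MYBL2 (15.5-fold), UGT78D1, CHI, 4CL3 and MYB111. In these calls the early enzymes CHS and CHI went opposite ways, as did the regulators MYB12 and MYB111. With a pseudocount of 5 FPKM, CHS stayed past 2-fold, at a log2 ratio of roots over leaves of 1.91. CHI, MYB12 and MYB111 fell under 2-fold, at -0.75, 0.61 and -0.29. Most late and tannin genes were compared here only because of their level in flowers or siliques, and stood below 1 FPKM in both seedling organs. With median-of-ratios scaling the split of calls turned from 7 in roots and 5 in leaves to 5 and 7, and no gene had separate intervals (0 and 0, against 0.677% and 0.733% of loci). With upper-quartile scaling the split was 6 and 6. The median log2 ratio of all compared loci moved as well, from 0.34 to 0.00 with median-of-ratios and to 0.14 with upper-quartile scaling. Shares of all loci called under these scalings are not given here, so the changed splits are not read as results about these genes. At 4-fold, CHS alone was higher in roots (1 gene, background 9.09%), and UGT78D1 and MYBL2 in leaves (2 genes, 7.42%).

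Genes upstream of and around the pathway were taken from a list of 40, of which 38 had a row of their own and 36 were compared. In flowers against siliques 6 of these were higher in flowers and 5 in siliques, and in roots against leaves 12 in roots and 7 in leaves. Shares of all compared loci are 13.5%, 8.42%, 23.6% and 13.4% in that order, against 6, 5, 12 and 7 of 36 genes. The summed level of the entry enzymes of phenylpropanoid metabolism was 581 (roots), 232 (leaves), 417 (flowers) and 744 FPKM (siliques). The sum leaves out 4CL2, whose row is joined with another gene. Single genes differed: PAL2 read 103, 65.9, 49.2 and 87.7 FPKM in that order, and 4CL1 69, 52.2, 68.3 and 121. PAL1 stood at 158 (roots), 34.9 (leaves), 109.8 (flowers) and 167 FPKM (siliques). C4H was at 227, 60.7, 142 and 322 FPKM, and PAL3 at 0.286, 12.8, 3.22 and 1.97. Of the 6 compared entry genes, 3 were higher in roots than in leaves (background 23.6%) and 1, PAL3, in leaves (13.4%). Between flowers and siliques, C4H alone passed 2-fold, in siliques (1 gene, background 8.42%).

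Relatives of FLS1 had organ profiles of their own. FLS5 (AT5G63600) stood at 359 FPKM in roots, 2.63 in leaves and 0.0296 in siliques and was listed at 0 in flowers. FLS3 was at 15.1 FPKM in roots and at most 0.933 elsewhere. FLS2, in contrast, was at 1.54, 0.585, 14.2 and 36 FPKM. FLS5 and FLS1 share 68.9% of aligned coding bases and no run longer than 21 bases. In flowers, the flavonol rhamnosyltransferase UGT89C1 stood at 68.6 FPKM against 4.67 in siliques, and UGT79B6, which builds the flavonol diglycosides of pollen, at 12.1 against 0.0519. Of the 11 further flavonol genes on the list, 4 were higher in flowers than in siliques (background 13.5%) and 1 in siliques (8.42%). The median log2 ratio of flowers over siliques of these 11 was 0.05, against 0.19 over all compared loci.

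Of the 10 other regulators, 5 were higher in roots than in leaves (background 23.6%) and 3 in leaves (13.4%). MYB7, a repressor, read 36.8 FPKM in roots against 1.97 in leaves, and KAN4, a regulator of ovule integuments, at 11.7 and 0.452. MYB3 read 12.9 FPKM in roots against 48.8 in leaves. MYB113 and MYB114, relatives of PAP1, did not exceed 0.375 FPKM, as was the case for PAP2 beside them on chromosome 1. The acyltransferase SCPL10 stood at 0.661 (roots), 9.15 (leaves), 33.6 (flowers) and 33.0 FPKM (siliques).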

How the data were processed

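RNA from 4 organs was sequenced, with 1 library each. DNase-treated total RNA went into Illumina TruSeq RNA libraries, per the labels' protocols. TopHat and Cufflinks were run by the authors with the TAIR10 build, per the submitters' processing notes, in versions not given in the sources used here. For 34288 loci the deposited table holds, per the file headers, an FPKM with interval ends and a status. What level these intervals have, and whether libraries were scaled, was not given in the sources used here.

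Genes were matched by code. Where a gene had 2 rows (4 genes), the row that overlaps the reference gene most was used, and the first where they tie. In a check of 32115 single-code loci, 98.4% overlapped the same code in the TAIR10.1 reference. Starts in the table were mostly 1 below the reference start (10328 loci, against 173 that were equal), so 1 was added. Ratios use a pseudocount of 1 FPKM. For depth, an interval end at 3 times the FPKM was taken to mean that 1 fragment was seen. Alternatives were pseudocounts of 0.1 and 5 FPKM, no floor or a floor of 5 FPKM, 2 scalings, a 4-fold call and separate intervals. The call rules were tested on simulated data.

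The members, their branches and the wider list were chosen with earlier results of these data known. All members are named. Of the wider list, up to 4 genes a sublist with the largest ratio in a matched pair and up to 2 against them may be named. Python 3.11.15, numpy 2.4.6, pandas 2.3.3, Biopython 1.88 and matplotlib 3.10.9 were used.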

Additional observations from a re-analysis of the deposited data

How the results depend on the processing

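Of the late and tannin genes, 0 reversed between flowers and siliques under the alternatives run. With separate intervals the genes higher in siliques than in flowers numbered 3, those higher in flowers 0, those above every other organ in siliques 3, and those higher in roots or in leaves 0 and 0. At 4-fold, 2 genes were higher in flowers than in siliques, 1 in roots and 2 in leaves. A pseudocount of 5 FPKM left 1 gene higher in roots and 2 in leaves, and one of 0.1 FPKM gave 12 in leaves. Shares of all compared loci at these pseudocounts are not given here, so these counts show the effect of the setting and are not results about the genes. The flavonol median of flowers over siliques was 0.75 with a pseudocount of 5 FPKM and 0.82 with a floor of 5 FPKM. The anthocyanin median rests on few genes: with a floor of 5 FPKM, which leaves MYBL2 alone, it was -1.01 for flowers over siliques and -3.88 for roots over leaves. The latter was -0.81 with the settings of the report, -2.35 with a pseudocount of 0.1 FPKM and -1.04 with median-of-ratios scaling, and the cause was not tested. That scaling moved the median of all compared loci from 0.34 to 0.00 in roots over leaves and from 0.19 to -0.02 in flowers over siliques. Of 376 recomputed differences of single genes, 349 stayed on their side of 2-fold, 15 fell under it, 12 passed it and 0 of those past 2-fold reversed. Below 2-fold, MYB12 and EGL3 changed sign in flowers over siliques with median-of-ratios scaling, from 0.16 to -0.07 and from 0.14 to -0.11, and the cause was not tested. F3H passed 2-fold in siliques over flowers with either scaling, at -1.26 and -1.14. No paired analysis was possible because each organ has 1 library and the labels carry no replicate numbers. Values under an FPKM of about 0.01 correspond to at most a few fragments, and differences between such values were not detectable at this depth.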
